A study of Aedes albopictus with 6 samples.

Results

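The gene LOC109417786 of the Asian tiger mosquito, Aedes albopictus, is named in the deposited table as the alpha subunit of the G protein G(q). It gave 5 of the 8690 circular RNAs (circRNAs) counted in whole bodies of females and males. All circRNAs whose host gene is LOC109417786 were taken, after lines repeated for each protein of a gene were made unique by contig, start, end and strand. The gene was chosen by measured values: its most abundant circRNA, of 496 bases, had passed the test of sex in these same libraries. Its female and male values are therefore a description with no p-value, and whether it was called is stated only as what chose it.

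The study compared 2 sexes of the Foshan laboratory strain, with 3 libraries each. A library was made from a pool of 30 virgin mosquitoes aged 2 days, so differences between single mosquitoes cannot be seen. The labels name no genotype, treatment or diet for either sex. RNA was extracted from whole bodies, ribosomal RNA was removed and linear RNA was digested with the exonuclease RNase R before directional libraries were made. The counts are reads across the back-splice junction, the joint that closes a circRNA, and each circRNA has a single such joint, so levels of circRNAs of different length were compared without scaling by length.

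G(q) alpha carries signals from receptors in the membrane to phospholipase C, an enzyme that splits a membrane lipid into inositol trisphosphate and diacylglycerol. The first opens calcium stores through its receptor, and the second acts on protein kinase C and, in the fly eye, belongs to the steps that open TRP channels. In Drosophila photoreceptors G(q) alpha couples rhodopsin to this pathway, and in insects it also serves muscarinic, serotonin and octopamine receptors of nerve, muscle and the reproductive tract. A circRNA is made when a splice donor joins an acceptor upstream of it, so that the exons between them form a closed ring. The level of a circRNA of the gene is not the level of its messenger RNA, which was not measured here.

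The circRNAs of LOC109417786 came from 1 short stretch of a long gene and fell into a downstream and an upstream group of exons. The gene covers contig NW_021838153.1 from 10788553 to 10890986 on the minus strand, 102433 bases, and the table lists 9 protein records for it. The table gives all 5 circRNAs an exon-exon junction. Their upstream edges lay 77.3% or 85.9% of the way from the 5′ end of the gene to its 3′ end, and their lowest downstream edge was 13576 bases from the 3′ end. No circRNA of another gene and none on the opposite strand was listed inside the gene. The names and numbers of the exons were not used here, and neither was the genome sequence.

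In the downstream group, a circRNA of 496 bases after splicing ran from 10802129 to 10802958, and a second of 389 bases ran from 10802410 to 10802958. Both began at the same upstream edge, and the longer one reached 281 bases further along the contig for 107 bases more of spliced RNA. In the upstream group, a circRNA of 466 bases ran from 10811098 to 10811855 and one of 338 bases from 10811449 to 10811855. These 2 again shared their upstream edge, and the longer one covered 351 bases more of the contig for 128 bases more of spliced RNA. The fifth circRNA, of 1090 bases, ran from 10802129 to 10811855 and so joined both groups, with the upstream edge of the 466-base circRNA and the downstream edge of the 496-base one. Its length exceeded the sum of those 2, 962 bases, by 128 bases. Shared ends are common in this table, since 65.7% of the 1685 host genes with at least 2 circRNAs had a pair that shared an end. None of the 5 lengths is a multiple of 3, and the 496 bases of the leading circRNA are below the median of 648 bases over all circRNAs with a length.

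**Figure D1:**
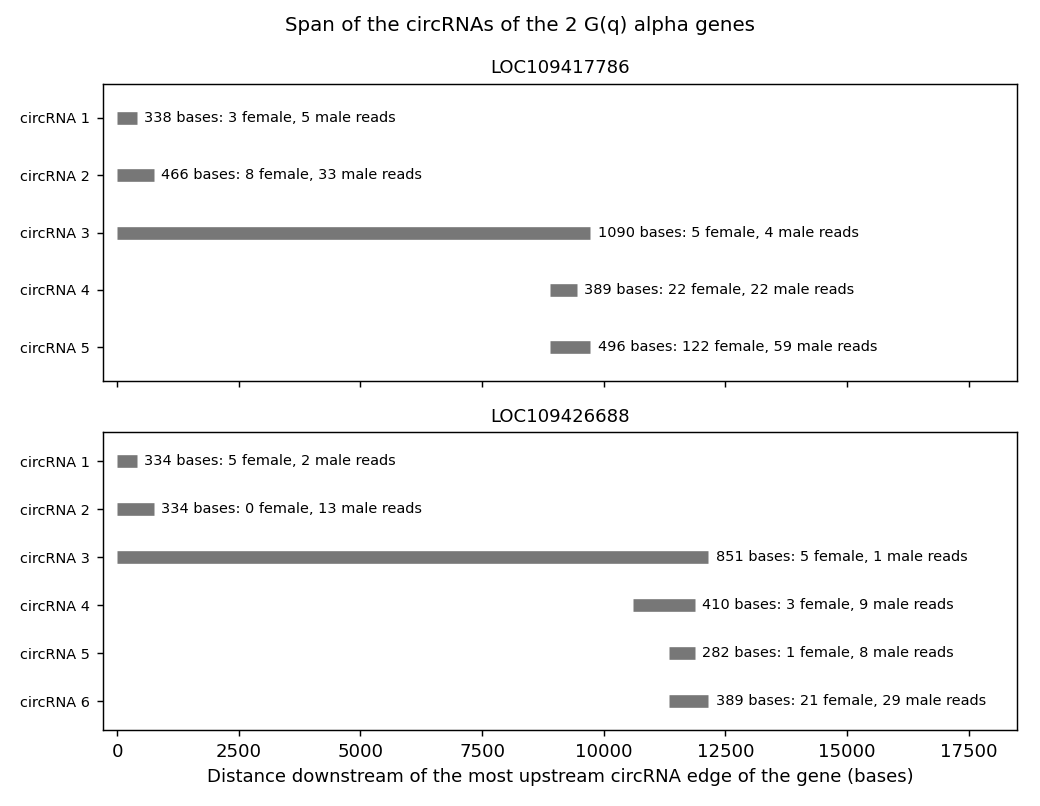
Span of each circRNA of LOC109417786 (upper panel) and of a second G(q) alpha gene, LOC109426688 (lower panel), as the distance in bases downstream of the gene's most upstream circRNA edge. Bars run from end to end on the contig, introns included, and the text beside each gives the spliced length and the reads of the 3 female and 3 male libraries. In both genes short circRNAs lie in 2 groups and 1 long circRNA joins them.

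Reads of the gene were moderate in number and were higher in females. LOC109417786 held 283 junction reads, which put it at rank 54 among 4166 host genes, at rank 30 by female reads and at rank 98 by male reads. Female libraries 1, 2 and 3 held 72, 40 and 48 of its reads, and male libraries 1, 2 and 3 held 30, 30 and 63. Per 10000 junction reads, with library sizes scaled by the TMM method of edgeR, the female levels were 44.2, 23.3 and 35.2 and the male levels 13.9, 12.1 and 22.8. The lowest female library lay just above the highest male library, and the other 4 were well apart. The mean level was 34.2 ± 10.5 in females and 16.3 ± 5.77 in males (SD, n = 3), and the fitted log2 fold change was 1.02 (SE 0.30), a 2.03-fold higher level in females. Of 870 host genes tested, 4.83% were called by edgeR at an adjusted p under 0.05, 2.53% as higher in females, and 24.9% had libraries of the sexes that did not overlap. The gene was among those called and those without overlap, from which nothing is read, since its choice rested on this contrast. The call was lost in each of the fits without female replicate 1 or 3 or male replicate 1 or 2, where the log2 fold change ran from 0.78 to 0.97.

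The 496-base circRNA carried most of the gene's reads and most of the difference. Its reads were 54, 32 and 36 in the female libraries and 15, 16 and 28 in the male ones. As levels per 10000 junction reads these were 33.2, 18.7 and 26.4 in females against 6.94, 6.44 and 10.2 in males. Every female library stood above every male library, and the spread within each sex was smaller than the gap between the means. The mean level was 26.1 ± 7.25 in females and 7.85 ± 2.02 in males (SD, n = 3), a fitted 3.28-fold difference (log2 fold change 1.71, SE 0.36). It ranked 88 of all circRNAs by reads. In the authors' deposited CPM table, the same circRNA stood at 6.53, 3.71 and 5.13 in the female columns and at 1.41, 1.27 and 1.98 in the male ones. These values are the same reads divided by a total for each library, so they are no second measurement.

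Only 3 of the 5 circRNAs, the 496-base, 389-base and 466-base ones, had enough reads to enter the fit over all circRNAs. Of the 738 circRNAs in that fit, 6.64% were called at an edgeR adjusted p under 0.05, 3.79% as higher in females and 2.85% as higher in males, and in 27.0% the libraries of the sexes did not overlap. Among the 3, the 496-base circRNA was the one called and the one without overlap in level, as its choice required.

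The 389-base circRNA, which shares its upstream edge with the leading one, did not separate the sexes. It had 12, 1 and 9 reads in the female libraries and 5, 8 and 9 in the male ones. Female library 2, with 1 read, lay below all male libraries, whereas the other 2 female libraries lay above them in level. The level was 4.85 ± 3.72 in females and 2.93 ± 0.54 in males (SD, n = 3). The log2 fold change was 0.69, and its SE of 0.74 was larger than the change itself.

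The 466-base circRNA of the upstream group leaned to males. Its reads were 2, 5 and 1 in the female libraries and 8, 6 and 19 in the male ones. In level, the female libraries stood at 1.23, 2.92 and 0.73 per 10000 junction reads and the male libraries at 3.70, 2.41 and 6.89. The sexes overlapped, because female library 2 lay above male library 2. The mean level was 1.63 ± 1.14 in females and 4.34 ± 2.30 in males (SD, n = 3), a log2 fold change of -1.35 with an SE of 0.84.

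The remaining circRNAs were rare. The 338-base circRNA had 0, 1 and 2 reads in the female libraries and 1, 0 and 4 in the male ones. The 1090-base circRNA, the one that joins both groups, had 4, 1 and 0 against 1, 0 and 3. Neither had enough reads to be tested, and at this depth no difference could be seen in either.

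**Figure D2:**
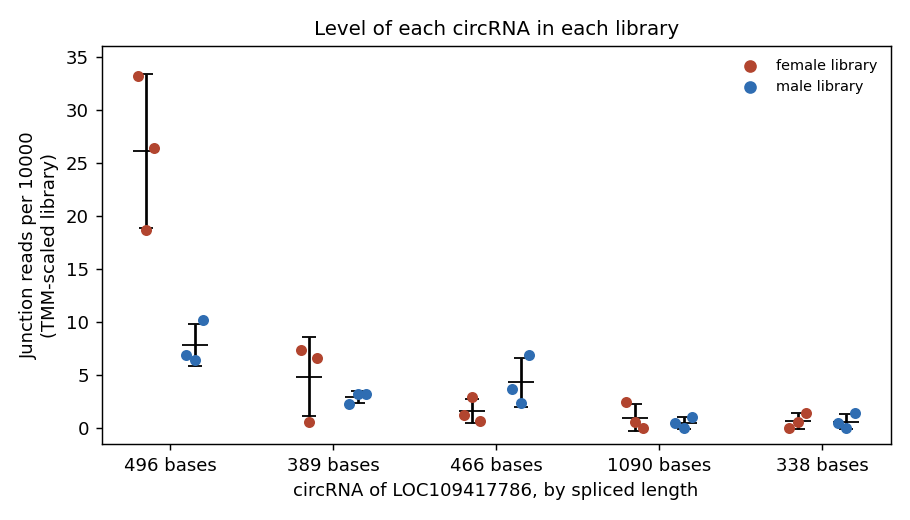
Level of each circRNA of LOC109417786 in junction reads per 10000 of the TMM-scaled library, with 1 point per library (3 female, 3 male), the mean as a horizontal line and the SD as the bar. The female points of the 496-base circRNA, at 18.7 to 33.2, all lie above its male points, at 6.44 to 10.2, and the other circRNAs overlap.

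The makeup of the gene's circRNAs was described by the share of each in the gene's reads. The 496-base circRNA made up 75.0%, 80.0% and 75.0% of the gene's reads in female libraries 1, 2 and 3 and 50.0%, 53.3% and 44.4% in the male ones. Its share was 76.7% ± 2.89 in females and 49.3% ± 4.49 in males (SD, n = 3), and every female library lay above every male one. Over the pooled reads this was 122 of 160 female reads and 59 of 123 male reads. The 466-base circRNA went the other way, with 2.78%, 12.5% and 2.08% of the reads in females and 26.7%, 20.0% and 30.2% in males. Its share was 5.79% ± 5.82 against 25.6% ± 5.16, and here no female library reached the lowest male one. Over the pooled reads this was 8 of 160 and 33 of 123. Shares within a library are tied, because a larger share of the 496-base circRNA leaves less for the others. In level, the sexes overlapped for the 466-base circRNA.

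The 389-base circRNA took 12.6% ± 8.84 of the reads in females and 19.2% ± 6.57 in males, the 338-base circRNA 2.22% ± 2.10 and 3.23% ± 3.18, and the 1090-base circRNA 2.69% ± 2.78 and 2.70% ± 2.44. The libraries of both sexes overlapped in each of these. Summed by exon group, the downstream circRNAs held 89.3% ± 5.99 of the reads in females and 68.5% ± 10.7 in males, and the upstream ones 8.01% ± 6.30 and 28.8% ± 8.32. The level of the downstream group was 30.9 ± 10.8 per 10000 junction reads in females and 10.8 ± 2.30 in males, and that of the upstream group 2.31 ± 1.14 and 4.97 ± 3.04. Within the downstream group the sexes did not overlap in level, whereas in the upstream group they did.

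As background for these shares, the share of the leading circRNA was compared over 73 host genes with at least 2 tested circRNAs and reads in all libraries. In 15.1% of them the libraries of the 2 sexes did not overlap. A test of the choice among circRNAs of 1 gene, diffSpliceDGE with the Simes method and Benjamini-Hochberg adjustment, called 0 of 75 host genes (0%), and so not LOC109417786. At an unadjusted Simes p under 0.05 it held 5 genes, and the gene-level form of the test called 1, another gene, with 11 at an unadjusted p under 0.05. Within LOC109417786 the fitted female over male change relative to the gene was 0.62 on the log2 scale for the 496-base circRNA, -0.40 for the 389-base one and -2.45 for the 466-base one.

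**Figure D3:**
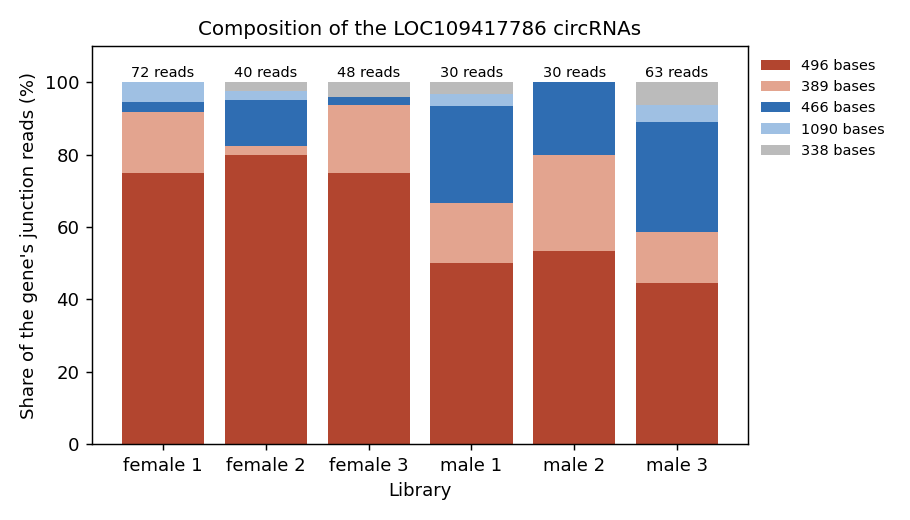
Share of each circRNA in the junction reads of LOC109417786, in percent, in each of the 3 female and 3 male libraries, with the gene's reads above the bar. The 496-base circRNA takes 75.0% to 80.0% in the female libraries and 44.4% to 53.3% in the male ones, and the 466-base circRNA 2.08% to 12.5% and 20.0% to 30.2%.

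A second gene with the same product name, LOC109426688, gave circRNAs with a similar layout. It lies on the same contig and strand from 12722620 to 12777049, 1831634 bases beyond the first gene, and its model is marked LOW QUALITY with 1 protein record. It had 6 circRNAs and 97 reads, 35 in females and 62 in males. For 4 of the 5 circRNAs of LOC109417786 it held one whose span on the contig was within 10 bases, in the same place of the layout, and a further circRNA joined its 2 groups. The spans were 829 and 820 bases for the leading circRNA, 548 and 539 for the shorter one of the downstream group, 757 and 758 for the longer one of the upstream group, and 406 and 405 for the shorter one. The spliced lengths given by the authors differed more. The partner of the 496-base circRNA was listed at 389 bases. Those of the 466-base and 389-base circRNAs were listed at 334 and 282 bases, each with an intron-exon junction. A circRNA of 410 bases in the second gene, without a partner in the first, also had an intron-exon junction. Where the exons of both genes are nearly identical, reads can have been counted for either one, so the split of reads between the genes is uncertain. These files do not settle whether LOC109426688 is a separate gene or a second assembled copy of the first, and its values hold only for the table's gene models.

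The genes' leading circRNAs did not show the same values. The partner of the leading circRNA had 6, 7 and 8 reads in the female libraries and 9, 6 and 14 in the male ones. Its level was 4.55 ± 1.16 per 10000 junction reads in females and 3.89 ± 1.35 in males (SD, n = 3), and the sexes overlapped. The log2 fold change was 0.21 (SE 0.68), with an edgeR adjusted p of 0.887. Summed over its circRNAs, LOC109426688 stood at 7.57 ± 1.71 in females and 8.15 ± 3.65 in males, a log2 fold change of -0.16 (SE 0.51) with an edgeR adjusted p of 0.907. Without male replicate 3 that value was 0.21. Whether the genes differ in their sex difference was not tested.

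The partner of the 466-base circRNA was seen in males and not in females. It had 0 reads in each female library and 2, 5 and 6 in male libraries 1, 2 and 3. With 3 reads set for the 3 female libraries together, the upper limit for a count of 0, its level was 2.75-fold higher in males. That value covers counting error in the female reads only. It leaves out error in the male count and the spread between libraries, so it is no lower bound. This circRNA was singled out after its values were seen, so no test is given. The partner of the 389-base circRNA had 1, 0 and 0 reads in females and 2, 1 and 5 in males, and that of the 338-base circRNA 0, 0 and 5 against 0, 0 and 2. The circRNA that joined both groups, of 851 bases, had 4, 1 and 0 reads in females and 1, 0 and 0 in males, and a circRNA of 410 bases without a partner had 0, 3 and 0 against 0, 2 and 7.

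The partners' reads were also added together, whichever gene they had been counted for. Reads counted for neither gene are not recovered by this sum. The leading circRNA then had a female level of 30.6 ± 7.19 per 10000 junction reads and a male level of 11.7 ± 3.23 (log2 fold change 1.37). The longer upstream circRNA then had a female level of 1.63 ± 1.14 and a male level of 6.04 ± 2.62 (log2 fold change -1.82), and the libraries of the sexes no longer overlapped in it. The sum over both genes was 41.8 ± 10.9 in females and 24.4 ± 9.41 in males, at 0.73 on the log2 scale, and the libraries overlapped. This summing was chosen after the data were seen.

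**Figure D4:**
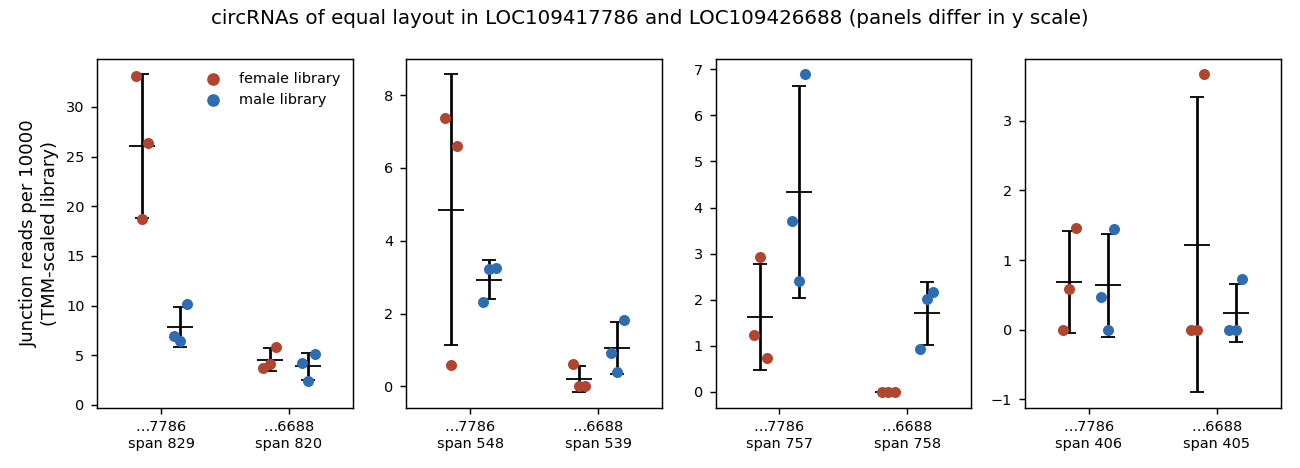
Levels of the 4 pairs of circRNAs with matching span in LOC109417786 and LOC109426688, in junction reads per 10000 of the TMM-scaled library, 1 panel per pair, with 1 point per library, the mean as a line and the SD as the bar. In the first pair the first gene's female libraries stand at 18.7 to 33.2 and the second gene's sexes overlap, and in the third pair the second gene's female libraries are all at 0.

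Other G protein subunit genes gave few circRNA reads. Besides the G(q) pair, 5 alpha subunit host genes were listed. The G(s) alpha genes LOC109433180 and LOC109402280, whose protein stimulates adenylyl cyclase, had 0 and 3 female reads and 7 and 2 male reads. The genes named alpha homolog, LOC115262082 and LOC109429571, had 5 and 4 female reads and 2 male reads each. The G(o) alpha gene LOC109411098 had 0 female and 3 male reads, and the beta-like gene LOC109420083 had 2 and 2. None of these 6 had enough reads for the test, and raw reads are not scaled for the greater depth of the male libraries. The RefSeq gene table held an entry for 3 of the 8 G protein genes, LOC109417786 among them.

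Host genes of the G(q) signalling pathway were described as a list. By words in the product names, 72 further host genes were assigned to G protein subunits, receptors, effectors, regulators and the phosphoinositide cycle. Such words also take in receptors that couple to other G proteins. Of these, 22 had enough reads and 0 were called in either direction by edgeR or by DESeq2, while 3 had an unadjusted p under 0.05 in edgeR and 2 in DESeq2. Over all 870 host genes tested, edgeR called 4.83%, and 158 had an unadjusted p under 0.05 in edgeR and 161 in DESeq2, so the counts in the list are near the general share and are no result about the pathway. Their log2 fold changes were over 0 in 10 and under 0 in 12, with a median of -0.22, beside -0.05 over all 870 host genes tested. The median was 0.20 without male replicate 3, so its direction is not stable. The filter was applied anew in that fit and 23 host genes of the list were tested, so the medians cover different sets.

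Among the receptors, 6 of 19 were tested and their median log2 fold change was -1.09. The serotonin receptor 2B-like gene LOC109422953 had a female level of 8.96 ± 3.14 per 10000 junction reads and a male level of 5.60 ± 0.77 (edgeR adjusted p = 0.554). The octopamine receptor Oamb-like gene LOC109412976 stood at 3.68 ± 2.88 and 7.80 ± 0.93 (edgeR adjusted p = 0.375), and the ultraviolet-sensitive opsin-like gene LOC109410022 at 2.79 ± 1.89 and 5.81 ± 2.61 (edgeR adjusted p = 0.445). The tachykinin-like peptides receptor gene LOC109405655 stood at 5.40 ± 5.48 and 3.91 ± 2.23 (edgeR adjusted p = 0.812). The lowest adjusted p of the list belonged to a metabotropic glutamate receptor 1-like gene, LOC109410169, named after its values were seen, at a female level of 0.24 ± 0.42 and a male level of 4.31 ± 1.92 (edgeR adjusted p = 0.0741). It passed the threshold without female replicate 3, which held its only female read, so that fit set male reads against a female count of 0.

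Among the effectors, 10 of 24 were tested and their median log2 fold change was 0.43. The TRP channel gene of the trpm type LOC109399478, which had the most reads, had a female level of 7.05 ± 3.73 and a male level of 12.7 ± 5.46 (edgeR adjusted p = 0.343). The triple functional domain gene LOC109430601 encodes Trio, a protein that G(q) alpha binds in mammals and nematodes. Its level was 7.97 ± 3.21 against 3.56 ± 1.54 (edgeR adjusted p = 0.362), and a like gene, LOC115258366, stood at 6.44 ± 0.79 against 4.49 ± 0.55 (edgeR adjusted p = 0.733). Phospholipase C is the enzyme that G(q) alpha activates. The genes of its epsilon-like form LOC109414157 and of the TRP protein-like channel LOC109410160, both named after their values were seen, stood at 1.75 ± 3.03 against 6.68 ± 2.46 and at 2.32 ± 2.46 against 6.97 ± 2.69. Their edgeR adjusted p values were 0.230 and 0.224, and the first passed the threshold without female replicate 2. That library held all 9 of its female reads, so that fit again set male reads against a female count of 0.

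The regulators, named as receptor kinases, arrestins, diacylglycerol kinases or regulators of G-protein signaling, had 1 of 15 genes tested. This was the G protein-coupled receptor kinase 2-like gene LOC109414765, with a female level of 4.43 ± 2.88 and a male level of 5.25 ± 1.95 (edgeR adjusted p = 0.877). The kinase genes LOC109403598 and LOC109426380, next by reads, had 15 and 4 female reads and 12 and 17 male reads. In the phosphoinositide cycle, which rebuilds the lipid that phospholipase C splits, 4 of 7 genes were tested and their median was -0.01. The phosphatidylinositol 4-phosphate 5-kinase gene LOC109416244 stood at 17.0 ± 6.75 against 13.3 ± 3.01 (edgeR adjusted p = 0.703), and the phosphatidylinositol 4-kinase gene LOC109411686 at 9.25 ± 2.21 against 11.5 ± 1.55 (edgeR adjusted p = 0.733). The gene LOC109428639, for a CDP-diacylglycerol synthase named as photoreceptor-specific, stood at 5.49 ± 3.76 against 2.11 ± 1.20 (edgeR adjusted p = 0.390).

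**Figure D5:**
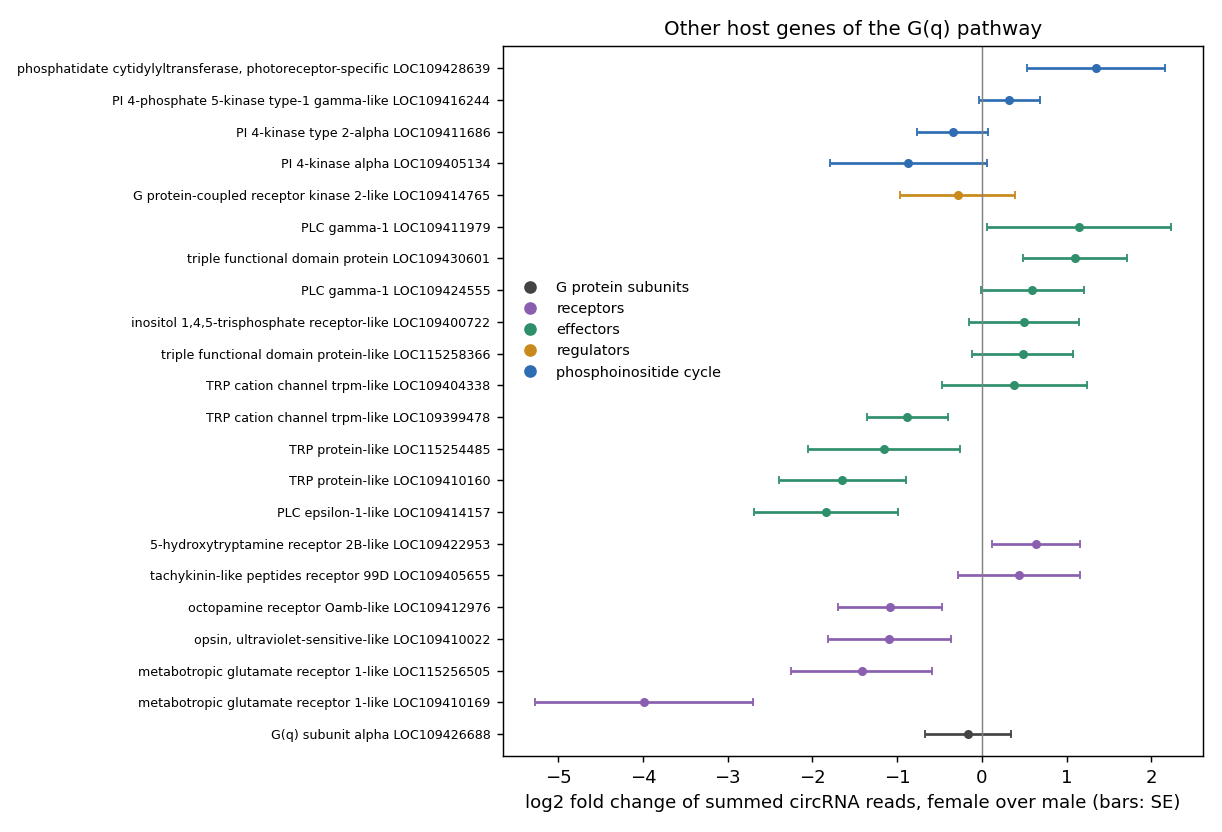
Log2 fold change, female over male, of summed circRNA reads for the 22 tested host genes of the G(q) pathway other than LOC109417786, coloured by role, with the SE as the bar. Changes lie on both sides of 0, 10 over and 12 under, and none passed the adjusted threshold.

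Summed tissue markers did not overlap between the sexes for photoreceptor, muscle and ovary host genes, and overlapped for neuronal and testis ones. The sums were not tested, and of the 870 single host genes tested, 24.9% had libraries of the sexes that did not overlap. In bulk RNA, fewer cells of a type cannot be told apart from less RNA per cell. Summed levels per 10000 junction reads ran from 18.4 to 21.3 in females and from 33.0 to 37.4 in males for 14 photoreceptor host genes, and from 32.3 to 36.8 and from 41.7 to 47.9 for 25 muscle host genes. Not every member went with its sum. The photoreceptor genes LOC109621667, LOC109621640, LOC109401015, LOC115269152 and LOC109428419 had higher mean levels in females. So did the muscle genes LOC109425333, of twitchin, LOC109427893, of titin, and LOC109432137, of troponin T. The muscle genes LOC115255186, LOC115255197, LOC115266053, LOC115266074 and LOC115269964 did so too. For 10 neuronal host genes the ranges were 16.9 to 31.3 and 30.1 to 35.8. For 4 host genes listed under ovary by product name only, of the pumilio-like and encore type, they were 13.9 to 26.4 and 5.55 to 10.5. Each of these 4 also had male reads, so they are not particular to the ovary. For 2 testis host genes, both axonemal dyneins, they were 0 to 0.73 and 0 to 2.01. Of the 55 host genes on these lists, 18 were tested and 0 were called by edgeR or DESeq2, with 4 at an unadjusted p under 0.05 in each, which is also near the share over all host genes. All photoreceptor host genes except LOC109621667, LOC109406001 and LOC109425060 are also on the G(q) pathway list. The photoreceptor sum is therefore not separate from that list. Reads were seen in females for 13 of 14 photoreceptor, 14 of 25 muscle, 9 of 10 neuronal, 4 of 4 ovary and 1 of 2 testis host genes, and in males for 13, 22, 10, 4 and 2 of them. Every male library was deeper than every female one, so these counts are not compared between the sexes. The part of tissue makeup in the values of LOC109417786 was not tested.

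Host genes were ranked by how closely their levels followed LOC109417786 across the 6 libraries. These fall into 2 sexes and differ in depth, so a host gene that is higher in females can rank high, and likeness is only a description. By Pearson's r of log2 CPM, the 5 most alike were the uncharacterized genes LOC109426538 (r = 0.967), LOC109427311 (0.967) and LOC109397236 (0.963), the zer-1 homolog LOC109425653 (0.951) and the dystrobrevin beta-like gene LOC115253624 (0.934). For the 496-base circRNA they were those of a contactin-associated protein-like 4 gene, LOC109399283 (0.981), of ATP-citrate synthase, LOC109425132 (0.981), of an endoplasmic reticulum mannosidase, LOC109415549 (0.980), of TRPL translocation defect protein 14, LOC109408212 (0.972), and of LOC109427311 (0.968). The circRNA of LOC109408212 was the most abundant of these 5, at 46.0 ± 7.03 per 10000 junction reads in females and 22.5 ± 2.77 in males. Among the gene's own circRNAs, r over the 6 libraries was 0.41 between the 496-base and 389-base ones, -0.67 between the 496-base and 466-base ones, and -0.55 between the 389-base and 466-base ones.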

How the data were processed

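The authors deposited raw counts of junction reads, which are whole numbers, for each circRNA in each library. Its 30393 lines were collapsed to 8690 circRNAs. Libraries held from 13322 to 27257 junction reads, and every circRNA listed had at least 2 in 1 library. The deposited CPM table, normalised by TMM by the authors as its title says, holds 764 circRNAs, and 100% of its values came out as whole reads within 0.01. Spliced length, product and junction type are the authors' deposited values. Bowtie2 2.1.0 is named by the submitters' processing notes. The circRNA caller is not given in the sources used here, nor is the build or its annotation. Contig positions are as in the table, and it is not known if its starts are 0-based or 1-based.

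Counts per circRNA, and summed per host gene, were tested with edgeR 4.0.16 (R 4.3.3), using TMM scaling, filterByExpr (minimum count 5, total 15), quasi-likelihood F test of sex over all features, Benjamini-Hochberg adjustment, threshold 0.05. Dividing the absolute log2 fold change by the root of F gave the SE. The choice test was diffSpliceDGE, and DESeq2 1.42.0 was an alternative. Scripts were tested on simulated data. Within a sex, pairs of libraries differed beyond sampling noise, with a chi-square of 2.17 to 3.30 per degree of freedom. They were kept apart, as the series calls them biological replicates.

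The gene and all lists were chosen with earlier results of these data known, and list words were trimmed after product names were seen. Named were all circRNAs of the gene, all other G protein subunit host genes, per role the 3 host genes with the most reads (ties kept), any called ones, and the 5 most alike by Pearson's r of log2 CPM (prior count 2).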

Additional observations from a re-analysis of the deposited data

How the results depend on the processing

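Of 241 alternative values for 21 results, 217 kept their direction and their side of the threshold or stayed within the spread, and 24 did not. Some could not differ, so the 217 overstate how stable the results are. All 5 circRNAs had exon-exon junctions and reads in 2 or more libraries, so those settings repeated the main shares. The gene-level choice test kept the same log2 changes, and reads recovered from the CPM table are the same counts. Without a filter on low counts, the log2 fold change of the 496-base circRNA was 1.38 and that of LOC109417786 was 0.81, and both missed the threshold. The pathway median was then -0.53, and 3 circRNAs and 13 host genes were called as higher in females. With the reads of both G(q) genes summed, the log2 fold change of the gene was 0.73 and missed the threshold. DESeq2 called 36 host genes as higher in females, against 22 by edgeR. The cause of these changes was not tested.

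Leaving out 1 library at a time, the log2 fold change of the 496-base circRNA ran from 1.48 to 1.85 and that of LOC109417786 from 0.78 to 1.29. Both describe values that chose the gene. The pathway median ran from -0.59 to 0.20, and its calls higher in males from 0 to 1. The log2 fold change of LOC109426688 ran from -0.43 to 0.21, reversed without male replicate 3. Calls over all circRNAs ran from 11 to 29 higher in females and from 12 to 26 higher in males, and over all host genes from 6 to 26 and from 6 to 29. The fewest came without male replicate 2. The share of the 496-base circRNA differed by 25.0 to 29.4 percentage points over all alternatives for shares, and that of the 466-base one by -23.2 to -17.5.

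No pairing by replicate number was seen: deviations of same-numbered libraries correlated at 0.02, 0.001 and -0.02. With 3 libraries per sex this cannot tell whether same-numbered libraries were handled together. With the number as a block, the log2 fold change was 1.71 for the 496-base circRNA and 1.04 for the gene, 28 and 21 circRNAs were called as higher in females and males, and no call on the gene or the pathway changed. On reads recovered from the CPM table, edgeR called 26 circRNAs as higher in females and 21 as higher in males, and the 496-base circRNA stood at 1.70.

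Depth is a limit, since the gene had from 30 to 72 reads per library and the 338-base and 1090-base circRNAs at most 4. A count of 0 in a library allows up to 3 reads, which is 0.0110% to 0.0225% of its junction reads and covers counting error only. Under the stricter filter of 10 reads and a total of 30 the 389-base and 466-base circRNAs were not tested and the choice test gave no value for this gene.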

Other observations

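The G(q) alpha gene models stand in a repeated order of neighbours on the contig. Beyond LOC109417786 along the contig, the next host genes were amphiphysin (LOC109426687), a membrane-bending protein of synapses and muscle, and an ANP32A-like nuclear phosphoprotein gene (LOC109426686). Further on, on the plus strand, came the calcium release-activated calcium channel gene LOC109426683. Beyond LOC109426688 came, in the same order and strands, a gene of the amphiphysin relative BIN1 (LOC109417784), an ANP32A-like gene (LOC115265666) and a calcium release-activated calcium channel gene (LOC109417780). Other host genes lay between some of these. The amphiphysin gene had 250 female and 299 male junction reads and the BIN1-like gene 79 and 107. The ANP32A-like genes had 2 female reads and 1 male read, and 5 and 1. The calcium channel gene near the first G(q) gene had 1 female and 18 male reads, and that near the second 2 and 3. The sequences of these stretches were not compared here.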
